A study of Vulpes vulpes with 8 samples.

Results

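The genes described here make, degrade and bind hyaluronan, and they were followed in the gingiva of red foxes (Vulpes vulpes). The set holds 8 genes: the synthases HAS1, HAS2 and HAS3, the hyaluronidases HYAL1 and HYAL2, the receptor CD44, the proteoglycan versican (VCAN) and the secreted binding protein TNFAIP6. Every probe set that the platform annotation gives to exactly 1 of these symbols was taken, which made 17 probe sets of the 43035 on the array, for 8 of the 15115 genes so named. Where a gene has several probe sets, they are given letters in order of their mean signal, A being the brightest. All 8 symbols were also found in the fox gene table of RefSeq, assembly VulVul3, where HYAL2, HYAL1 and HYAL3 stand next to each other between TUSC2 and NAA80.

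The study compared foxes with hereditary hyperplastic gingivitis (HHG), an inherited overgrowth of the gum, with foxes free of it. The affected animals were foxes 19, 55 and 107, which were males, and foxes 381 and 757, which were females. The unaffected animals were males 86 and 97 and female 402. Diagnosis rested on early signs of red and granular gum at the tooth margin. Each fox gave 1 array, so the 8 arrays are separate animals, sampled either in the pelting season or in late spring. Which fox was sampled in which season is not among the labels used here, so season was not tested. Because the arrays carry dog probe sets, fox RNA was read through the sequence of a related species.

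Hyaluronan is a long unbranched sugar polymer without a protein core that fills the space between cells of connective tissue and of stratified epithelium, and both layers of the gum contain it. It is polymerised at the plasma membrane from UDP-glucuronic acid and UDP-N-acetylglucosamine, and in the common view of turnover the polymer is first cut near the cell surface and then taken up and degraded in lysosomes. Cells hold it through receptors such as CD44, and matrix proteins such as versican and TNFAIP6 bind it outside the cell.

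For none of the 8 genes did the difference between affected and unaffected gingiva pass the test. HAS2 had nearly equal means in the groups, 3 probe sets of CD44 and 3 of HYAL2 had lower means in affected foxes without passing the test, and HYAL1 differed among single foxes far more than between groups. HAS1, HAS3 and TNFAIP6 lay near the array background. Of the 17 probe sets, 13 were bright enough to enter the test and 4 were not, those 4 being HAS1, both of HAS3 and TNFAIP6. The test was limma's moderated test on log2(signal + 16) with Benjamini-Hochberg adjustment over 25754 probe sets, and each of the 13 had an adjusted p of 0.9999. At a threshold of 0.05 limma called 0 of the 25754 probe sets (0%), so the 0 calls among the members match the table as a whole. At an unadjusted p under 0.05 limma counted 693 probe sets (2.69%) and 0 of the 13 members. In none of the 13 did all affected foxes lie on 1 side of all unaffected foxes, a separation seen in 391 probe sets with the affected foxes lower (1.52%) and in 236 with the affected foxes higher (0.916%). Lower means of log2(signal + 16) in affected foxes were found for 11 of the 13, beside 14555 of all tested probe sets (56.5%), but probe sets of 1 gene are not independent. The count depends on the scale, since the mean of the signal itself was higher in affected foxes for every HYAL1 probe set and for VCAN probe set B. The median difference was -0.23 over the 13 and -0.037 over all tested probe sets, on the log2(signal + 16) scale. As each sample is a piece of whole tissue, fewer cells of a type and less RNA per cell cannot be told apart.

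**Figure D1:**
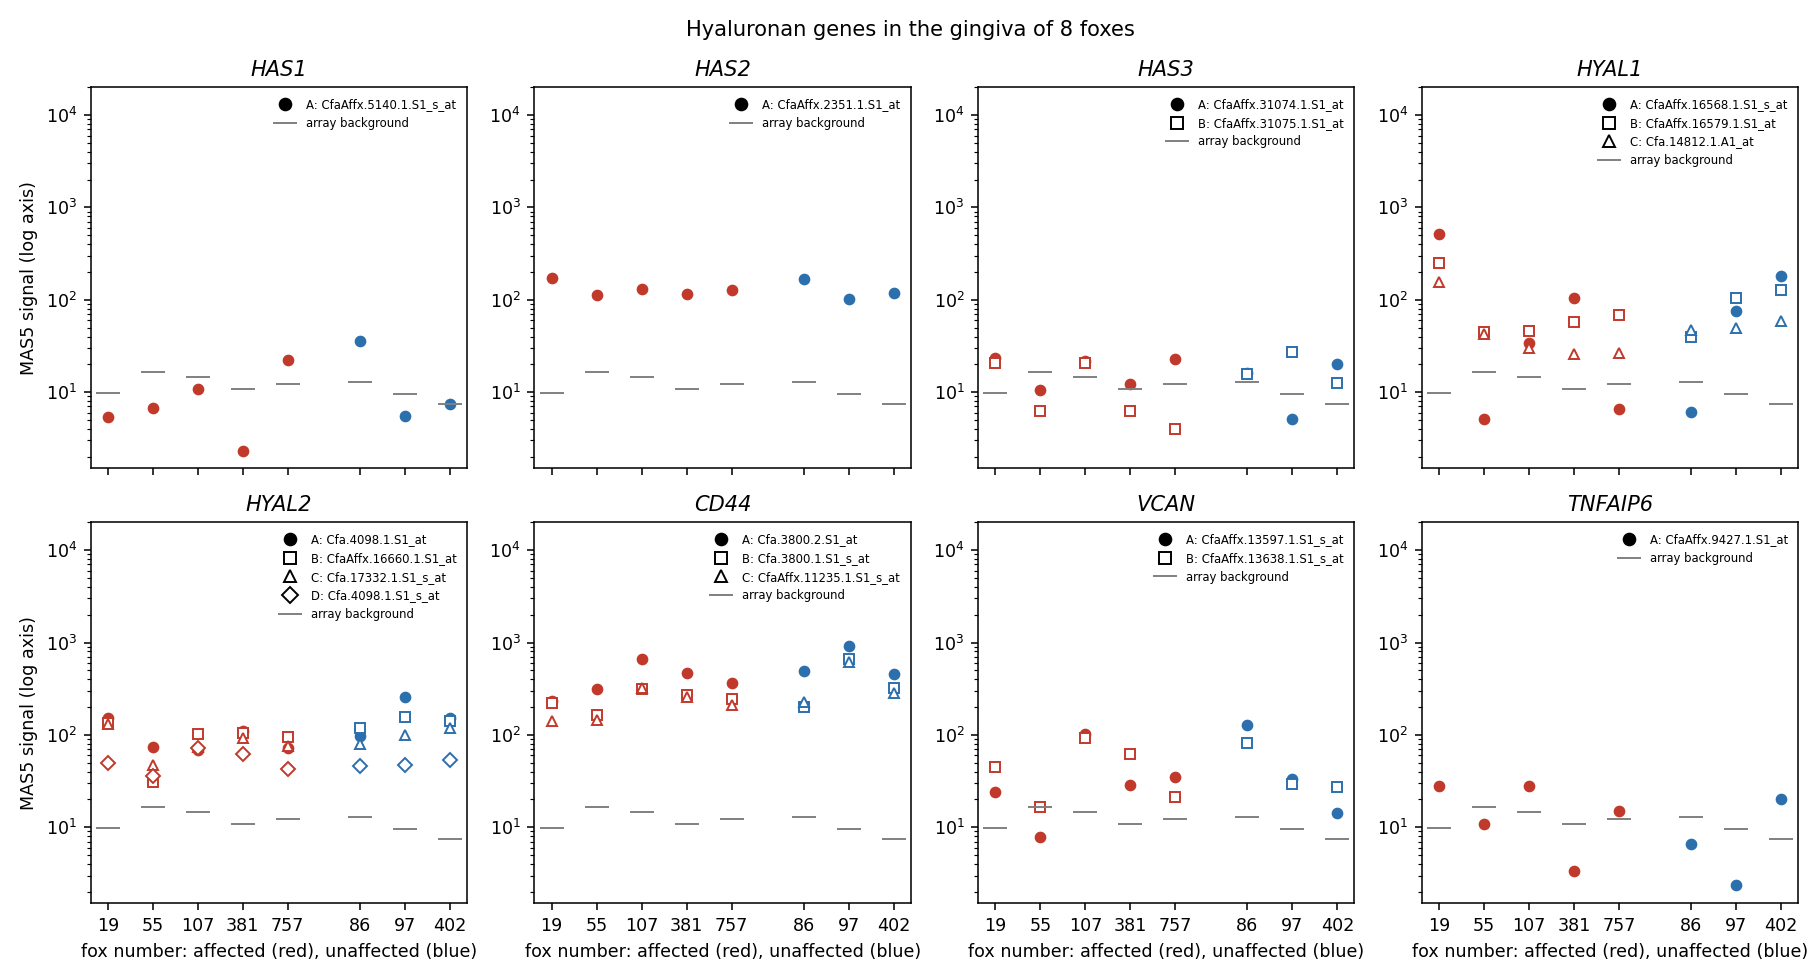
MAS5 signal (log axis) of each of the 17 probe sets in each fox, affected foxes in red and unaffected foxes in blue, with the array background as a grey bar. HAS2 stays between 102 and 171 in all 8 foxes, whereas 1 HYAL1 probe set runs between 5.10 and 510, and HAS1, HAS3 and TNFAIP6 lie around the background.

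Among the synthases, HAS2, regarded as the main hyaluronan synthase of fibroblasts, read 171, 112, 131, 116 and 129 in affected foxes 19, 55, 107, 381 and 757, against 168, 102 and 118 in unaffected foxes 86, 97 and 402. The groups overlapped throughout, with 1 high fox in each, and the signal was above background on all 8 arrays. The HAS2 mean was 132 ± 23.4 over the 5 affected animals and 129 ± 33.9 over the 3 unaffected ones (SD). The difference was 0.03 ± 0.20 on the log2(signal + 16) scale (SE, limma adjusted p = 0.9999), with a 95% interval of -0.42 to 0.49, or 0.749-fold to 1.40-fold. HAS2 was also among the steadier transcripts: its highest signal was 1.67 times its lowest, and its standard deviation over the 8 foxes on the log2 scale stood at the 26.7th percentile of all tested probe sets.

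HAS1, a synthase of the same family, was above background on 2 of the 8 arrays. Its signal was 5.40, 6.81, 10.8, 2.30 and 22.0 in affected foxes 19, 55, 107, 381 and 757, against 35.6, 5.55 and 7.39 in unaffected foxes 86, 97 and 402. The readings above background came from affected fox 757 and unaffected fox 86, so the other 6 foxes give no measured level. HAS3, the synthase usually linked to epithelia, had a pair of dim probe sets. Probe set A was above background on 6 arrays and read 10.6 to 23.3 in affected foxes, median 21.9, and 5.09 to 20.2 in unaffected foxes, median 16.1. Probe set B was above background on 5 arrays and read 3.95 to 20.7 in affected foxes, median 6.24, and 12.6 to 27.4 in unaffected foxes, median 15.6. The pair disagreed in sign: in a fit without the filter on dim probe sets the differences were 0.21 ± 0.22 and -0.36 ± 0.26 on the log2(signal + 16) scale (SE), both with a limma adjusted p of 0.9999. HAS1 differed by -0.27 ± 0.33 in the same fit, and by 0.13 without unaffected fox 86.

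HYAL1, the lysosomal hyaluronidase, varied widely among foxes of both groups. In probe set A it read 510, 5.10, 34.0, 104 and 6.64 in affected foxes 19, 55, 107, 381 and 757, against 6.08, 75.3 and 179 in unaffected foxes 86, 97 and 402. Fox 19 was highest, and foxes 55, 757 and 86 lay below background, so each group held high and dim readings. The highest signal was 99.9 times the lowest, and the standard deviation over the 8 foxes stood at the 99.8th percentile of tested probe sets. Probe set B was above background on all 8 arrays and read 252, 44.3, 45.4, 57.9 and 68.2 in affected foxes 19, 55, 107, 381 and 757, against 39.1, 106 and 128 in unaffected foxes 86, 97 and 402. Probe set C read 157, 42.6, 29.9, 25.9 and 26.8 in the affected foxes in the same order, against 47.2, 49.6 and 58.5 in the unaffected foxes. Fox 19 was the highest of the 8 in all 3 probe sets, and the other affected foxes lay below all 3 unaffected foxes in probe set C.

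The differences of HYAL1 were -0.10 ± 1.05, -0.12 ± 0.50 and -0.15 ± 0.43 on the log2(signal + 16) scale (SE), in that order of probe sets. The 95% interval of the first ran from -2.43 to 2.24, so for probe set A neither a large excess nor a large deficit in affected foxes was excluded. The intervals of probe sets B and C were narrower, from -1.24 to 0.99 and from -1.10 to 0.80. Without fox 19 the differences were -0.83, -0.51 and -0.53. The last of these had an unadjusted limma p of 0.0205 and an adjusted p of 0.988. Without unaffected fox 86 they were -0.96, -0.55 and -0.20, and without unaffected fox 402 they were 0.61, 0.15 and -0.082. Probe sets B and C correlated over the 8 foxes with a Pearson r of 0.83 (exact permutation p = 0.0190, adjusted 0.0348) and a Spearman rho of 0.55 (exact permutation p = 0.171), a relation that rests on few foxes, since r was 0.11 without foxes 19 and 402.

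Keratinocyte markers were set beside HYAL1. A score over 13 keratinocyte genes, the mean of their log2 values each centred over the 8 foxes, was 0.99 in affected fox 19, the highest, and -1.55 in unaffected fox 86, the lowest. HYAL1 was highest and lowest in the same foxes in probe set B, and its r with the score was 0.74 (two-sided exact permutation p = 0.0380) with a rho of 0.71 (exact permutation p = 0.0576). After adjustment over the 6 relations of hyaluronan genes with this score the exact permutation p was 0.228 for r, and r was 0.52 without foxes 19 and 86. HYAL1 probe set C, also above background on all 8 arrays, was highest in fox 19 but not lowest in fox 86, where it read 47.2. It was lowest in affected fox 381, at 25.9, where the score was 0.45. No correlation of probe set C with the score is given here. The 13 genes had 12 members above background on all 8 arrays, with KRT1 above it on 3, and their summed signal ran from 40328 to 73624 in affected foxes and from 18400 to 75341 in unaffected foxes. With the score as a covariate the HYAL1 differences were -0.95, -0.48 and -0.33, none with an unadjusted limma p under 0.05. The part of epithelial content in the HYAL1 values was not tested beyond this covariate.

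**Figure D2:**
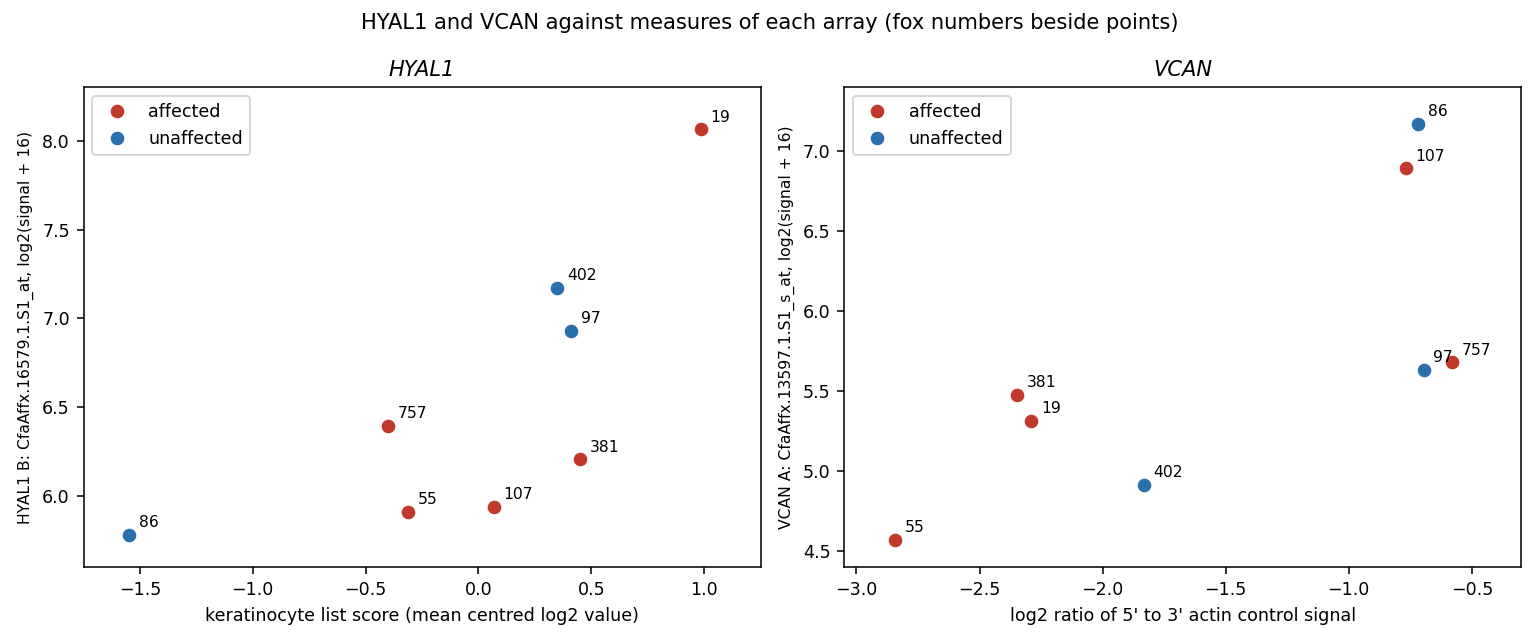
Left, HYAL1 (probe set B) in log2(signal + 16) against the keratinocyte score of each fox; right, VCAN (probe set A) against the log2 ratio of the 5' to the 3' actin control, affected foxes in red and unaffected foxes in blue. Affected fox 19 is highest in both HYAL1 and score, and the 4 foxes of high actin ratio lie above the 4 of low ratio in VCAN.

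HYAL2, a hyaluronidase held at the cell surface by a lipid anchor, was read by 4 probe sets, 3 of which had lower means in affected foxes. Probe set A read 153, 73.1, 67.8, 110 and 72.8 in affected foxes 19, 55, 107, 381 and 757, against 97.8, 259 and 152 in unaffected foxes 86, 97 and 402. Unaffected fox 97 was highest, while affected fox 19 lay above unaffected foxes 86 and 402, so the groups overlapped. The mean in this probe set was 95.3 ± 36.5 over the 5 affected animals and 169.7 ± 81.9 over the 3 unaffected ones (SD). Its difference of -0.70 ± 0.32 on the log2(signal + 16) scale (SE) had the smallest unadjusted limma p of the 13, 0.0557, with an adjusted p of 0.9999 and a 95% interval of -1.42 to 0.02. Without unaffected fox 97 the difference was -0.37, and without unaffected fox 86 it was -1.01.

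HYAL2 probe set B read 134, 31.1, 103, 105 and 94.8 in affected foxes 19, 55, 107, 381 and 757, against 120, 158 and 140 in unaffected foxes 86, 97 and 402. Affected fox 55 was far below the rest and affected fox 19 was inside the unaffected range. The difference was -0.59 ± 0.34 (SE), and -0.31 without fox 55. In probe set C the affected foxes read 47.2 to 131, median 76.0, and the unaffected foxes 78.7 to 118, median 99.4, with a difference of -0.23 ± 0.26 (SE) and of -0.082 without fox 55. Without unaffected fox 402 that difference was -0.11, and without affected fox 19 it was -0.39. Probe set D went the other way, with 36.2 to 72.8 in affected foxes, median 49.8, and 45.5 to 53.1 in unaffected foxes, median 46.7, a difference of 0.07 ± 0.20 (SE). All 4 had a limma adjusted p of 0.9999 and were above background on all 8 arrays.

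The HYAL2 probe sets did not all follow each other across foxes. Probe sets B and C correlated with an r of 0.86 (exact permutation p = 0.00598) and a rho of 0.86 (exact permutation p = 0.0107), adjusted to 0.0219 and 0.0236 over the 11 pairs of probe sets of 1 gene, and r was 0.83 without foxes 55 and 97. Probe set A followed these with an r of 0.66 and 0.71 (exact permutation p of 0.0787 and 0.0466, adjusted 0.108 and 0.0732) and a rho of 0.86 with each (exact permutation p = 0.0107). Probe set D had an r of -0.036, 0.45 and 0.35 with probe sets A, B and C, and the smallest exact permutation p of these was 0.275. Which stretch of the transcript each probe set reads was not analysed here. With the keratinocyte score as a covariate the 3 probe sets of lower mean differed by -0.94, -0.74 and -0.39, and unadjusted limma p-values were 0.00146, 0.0418 and 0.103, with 0.501 as the smallest adjusted p. In the same fit probe set D differed by 0.020, with an unadjusted limma p of 0.924.

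**Figure D3:**
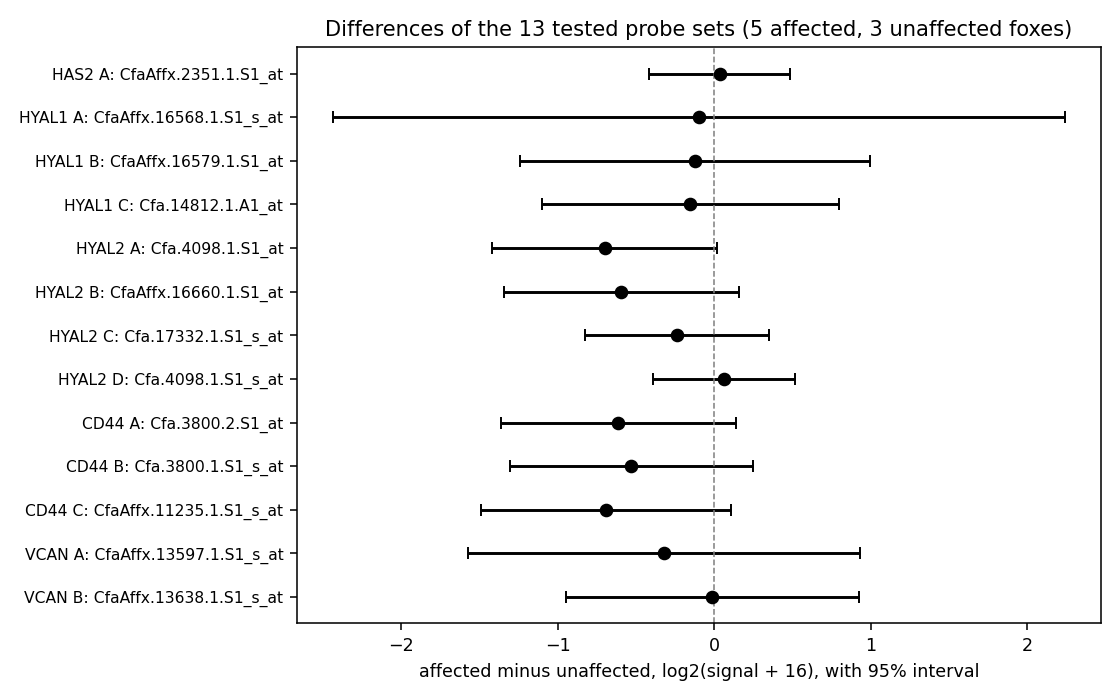
Difference between affected and unaffected foxes in log2(signal + 16) for the 13 tested probe sets, with the 95% interval of limma's moderated test. All intervals include 0; those of HAS2 and the HYAL2 probe set D are the narrowest and that of HYAL1 probe set A, from -2.43 to 2.24, is the widest.

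CD44, the main cell-surface receptor for hyaluronan and a protein of both epithelial and immune cells, had lower means in affected foxes in all 3 of its probe sets. Probe set A read 235, 313, 656, 466 and 366 in affected foxes 19, 55, 107, 381 and 757, against 492, 923 and 462 in unaffected foxes 86, 97 and 402. Fox 97 was the highest of all 8, and affected foxes 107 and 381 lay above unaffected fox 402. Probe set B read 221, 162, 314, 271 and 246 in the affected foxes in the same order, against 198, 668 and 318 in the unaffected foxes. Probe set C read 140, 145, 326, 256 and 210 in the affected foxes, against 225, 616 and 283 in the unaffected foxes. Fox 97 was again the highest in both, and the remaining foxes of the groups overlapped.

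CD44 means of probe sets A, B and C were 407 ± 162, 243 ± 56.6 and 215 ± 78.3 over the 5 affected animals, against 626 ± 258, 395 ± 244 and 374 ± 211 over the 3 unaffected ones (SD). The differences were -0.61 ± 0.34, -0.53 ± 0.35 and -0.69 ± 0.36 on the log2(signal + 16) scale (SE). Their 95% intervals ran from -1.36 to 0.14, from -1.30 to 0.25 and from -1.49 to 0.11, and the last of these spans 0.356-fold to 1.08-fold. Unaffected fox 97 decided much of the size: without it the differences were -0.30, -0.077 and -0.28. Without unaffected fox 86 they were -0.74, -0.91 and -0.98, with unadjusted limma p-values of 0.0875, 0.0182 and 0.0290 and no adjusted p past the threshold. The 3 probe sets correlated over the 8 foxes with an r of 0.81, 0.96 and 0.94 (exact permutation p of 0.0170, 0.000198 and 0.00174) and a rho of 0.62, 0.90 and 0.86 (exact permutation p of 0.115, 0.00456 and 0.0107). Adjusted over the 11 pairs the exact permutation p-values of r were 0.0348, 0.00218 and 0.00955, and r was 0.69, 0.90 and 0.74 without the 2 outermost foxes of each pair.

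**Figure D4:**
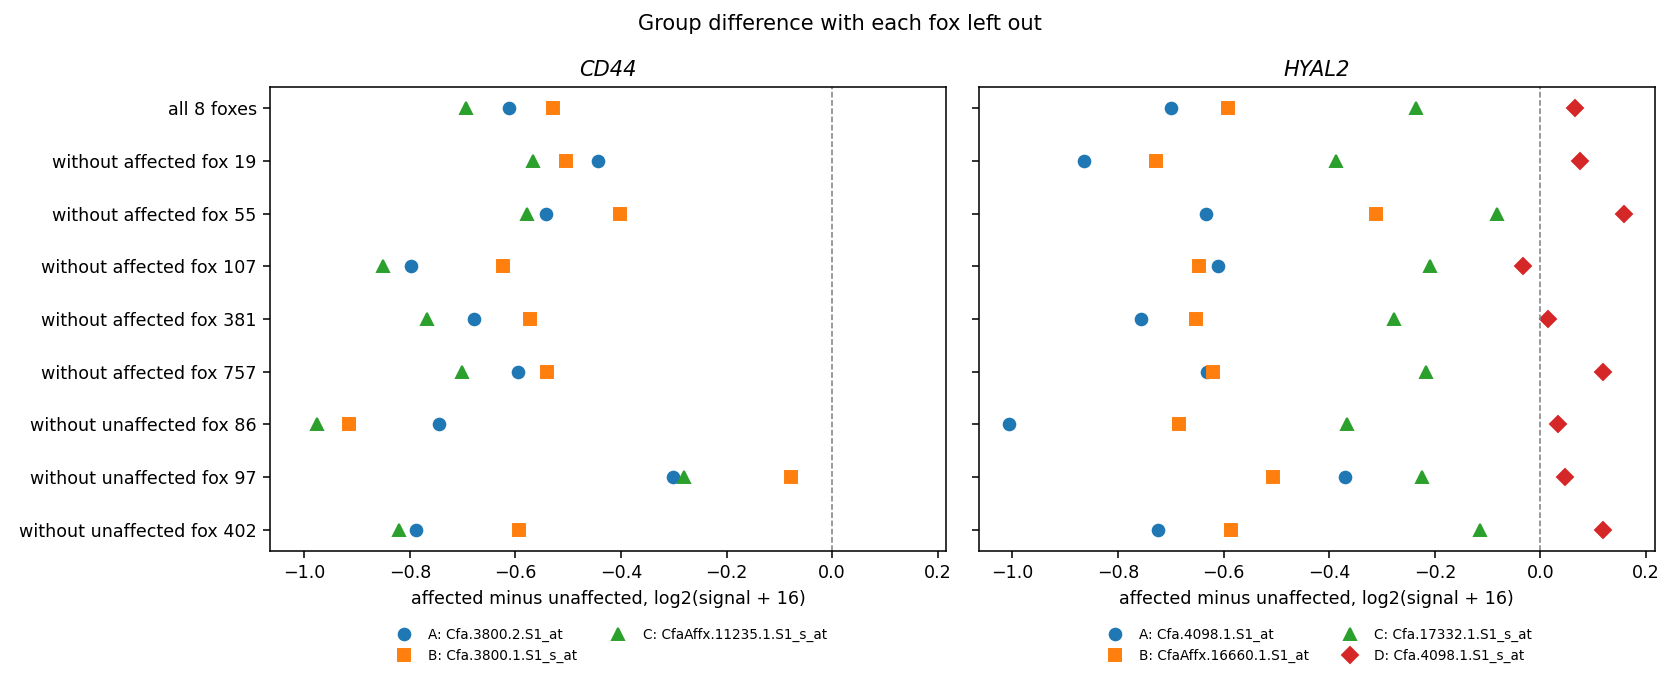
Difference between affected and unaffected foxes in log2(signal + 16) for the CD44 and HYAL2 probe sets with all 8 foxes and with each fox left out in turn. CD44 stays below 0 throughout and comes nearest to it without unaffected fox 97, and the HYAL2 probe set D alone lies above 0 with all 8 foxes.

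VCAN encodes versican, a large chondroitin sulfate proteoglycan of connective tissue whose end domain binds hyaluronan. Probe set A read 23.8, 7.74, 103, 28.6 and 35.3 in affected foxes 19, 55, 107, 381 and 757, against 128, 33.6 and 14.2 in unaffected foxes 86, 97 and 402. Probe set B read 44.6, 16.4, 91.4, 61.4 and 21.2 in the affected foxes in the same order, against 80.7, 29.5 and 27.3 in the unaffected foxes. Affected fox 107 and unaffected fox 86 were the highest in both probe sets, and affected fox 55 was lowest and below background in both. The differences were -0.32 ± 0.56 and -0.011 ± 0.42 on the log2(signal + 16) scale (SE, limma adjusted p = 0.9999 each), with 95% intervals of -1.57 to 0.93 and -0.95 to 0.93. Without unaffected fox 86 both turned positive, at 0.31 and 0.36. The pair correlated with an r of 0.82 (exact permutation p = 0.0115, adjusted 0.0317) and a rho of 0.67 (exact permutation p = 0.0831), and r was 0.42 without foxes 107 and 86, so the relation rests on those foxes.

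Fibroblast markers and an RNA control were set beside VCAN. The summed signal of 9 fibroblast genes was highest in the same foxes as VCAN, 27479 in affected fox 107 and 30781 in unaffected fox 86, and ran from 10210 to 27479 in affected foxes and from 8223 to 30781 in unaffected foxes. The largest gap in the log2 signal of the 5' actin control split the foxes into a high set (affected 107 and 757, unaffected 86 and 97) and a low set (affected 19, 55 and 381, unaffected 402). The 5' to 3' actin control ratio, which falls when RNA is degraded, separated the same sets. In probe set A each fox of the high set read above each fox of the low set, while in probe set B the sets overlapped. Because the ratio falls into separate sets of 4 foxes, no correlation with it was computed. The VCAN differences were -0.12 and -0.069 within the high set and 0.21 and 0.30 within the low set, where fox 402 is the only unaffected animal. With the actin ratio as a covariate the VCAN differences were 0.20 and 0.15 for probe sets A and B, opposite in sign to those of the fit on group alone (limma adjusted p = 0.9997 each). The part of fibroblast content in these values was not tested.

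For CD44 and for HYAL2 probe sets A, B and C the difference had 1 sign in both sets. The same held for HYAL1 probe sets A and B, for HAS1 and for HAS3 probe set B. The share of all probe sets with 1 sign in both sets is not given here. Within the high and the low actin set CD44 differed by -0.45 and -0.48 in probe set A, by -0.38 and -0.54 in probe set B and by -0.49 and -0.66 in probe set C. HYAL2 differed by -1.04 and -0.44 in probe set A, by -0.42 and -0.72 in probe set B and by -0.20 and -0.42 in probe set C. No test was made within the sets, and the low set holds 1 unaffected fox.

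TNFAIP6, a secreted protein induced in inflammation that moves protein chains onto hyaluronan, was above background on 4 of the 8 arrays and was not tested. It read 27.6, 10.9, 27.7, 3.34 and 14.9 in affected foxes 19, 55, 107, 381 and 757, against 6.64, 2.38 and 20.4 in unaffected foxes 86, 97 and 402. Affected foxes 19, 107 and 757 and unaffected fox 402 were above background and the groups overlapped. In the fit without a filter TNFAIP6 differed by 0.35 ± 0.32 on the log2(signal + 16) scale (SE, limma adjusted p = 0.9999). Among males alone it was 0.87 with an unadjusted limma p of 0.0241, where 1 of the 3 affected and both unaffected males lay below background.

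Sex was compared with disease as a further term. No member passed the test between females and males, and the smallest unadjusted limma p of the 13 was 0.283, for the HYAL1 probe set C, and all adjusted p-values were 0.9999. Over all tested probe sets 1 was called in that comparison (0.00388%) and 591 had an unadjusted p under 0.05. The difference of the disease effect between the sexes, tested as an interaction, was called in 0 probe sets (0%) by limma, with an unadjusted p under 0.05 in 636 of all and in 0 of the 13 members. The only unaffected female was fox 402, so this test has little precision.

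Pairs of members were compared across foxes. Over 10 pairs among HAS2, HAS3, HYAL2, CD44 and VCAN, each by its brightest probe set, none passed after adjustment of the exact permutation p. HAS2 and HAS3 came closest, with an r of 0.64 (exact permutation p = 0.0900, adjusted 0.467). Their rho was 0.83 (exact permutation p = 0.0154, adjusted 0.154), and r was 0.95 without foxes 19 and 86. HAS3 was read here by its probe set A, which was dim and below background in foxes 55 and 97. Its probe set B was highest in unaffected fox 97, at 27.4, where HAS2 was lowest, at 102. HYAL2 and CD44, both with lower means in affected foxes, had an r of 0.34 (exact permutation p = 0.411) and a rho of 0.024 (exact permutation p = 0.977). The actin sets hold 4 foxes each, too few for correlations within them.

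The genes whose pattern over the 8 foxes was most like that of a member were picked by Pearson r among about 9250 genes with a probe set above background on all arrays. HAS2 was most like SIRT5, a mitochondrial deacylase (r = 0.93), ALDH1L2, a mitochondrial folate enzyme (r = 0.93), and SEMA3C, a secreted semaphorin (r = 0.92). HYAL1 was ranked by probe set B, since 3 of the 8 readings of probe set A lay below background, and was most like MEX3B, an RNA-binding protein (r = 0.98), TRNAU1AP, which takes part in selenocysteine incorporation (r = 0.96), and ABRACL (r = 0.95). HYAL2 was most like GGT6, of the gamma-glutamyltransferase family (r = 0.98), DCTN4, a dynactin subunit (r = 0.97), and KAT7, a histone acetyltransferase (r = 0.96). CD44 was most like CRTC2, a coactivator of CREB (r = 0.97), MARCHF9, a ubiquitin ligase (r = 0.94), and OSBPL6, of the oxysterol-binding family (r = 0.93). These r are the highest of all genes searched, over 8 foxes, and are given as a description.

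Genes around the pathway were counted in 5 lists, each gene by its brightest probe set, beside 10848 genes tested in all. Here and in the cell type lists below, higher and lower refer to means of log2(signal + 16). Of the 10848 genes, 4915 (45.3%) had higher means in affected foxes, and the median difference was -0.027. limma called none of the 47 listed genes tested. An unadjusted limma p under 0.05 was found for GPI and MMP9 among these 47 and for 277 of all 10848. Enzymes that supply the sugar nucleotides for hyaluronan had higher means in affected foxes for 9 of 11 genes, with a median of 0.21 on the log2(signal + 16) scale. GPI, an enzyme of glycolysis that stands at the branch to hexosamines, read 4665, 6903, 4865, 4615 and 4614 in affected foxes 19, 55, 107, 381 and 757, against 3000, 3963 and 3923 in unaffected foxes 86, 97 and 402. All affected foxes lay above all unaffected foxes, and the difference was 0.49 ± 0.20 (SE; limma's moderated test across all probe sets gave an unadjusted p of 0.0321 and an adjusted p of 0.9999). GFPT1, which commits fructose 6-phosphate to hexosamines, differed by 0.37 ± 0.26 (SE), and its further probe sets by 0.37 and 0.38. UGDH, which makes UDP-glucuronic acid, differed by -0.17 ± 0.74 (SE), and by 0.70 without unaffected fox 86 and -1.07 without unaffected fox 97. PGM3, of the hexosamine branch, differed by -0.078 ± 0.22 (SE).

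Other enzymes of turnover had 5 tested genes of 8 on the array, 2 higher and 3 lower in affected foxes, with a median of -0.0099. GUSB, the lysosomal glucuronidase, differed by 0.14, HYAL3 by 0.048 with a second probe set at -0.14, HGSNAT, which acetylates heparan sulfate in lysosomes, by -0.23, and HEXA, a hexosaminidase subunit, by -0.010. Further receptors and binding proteins had 15 tested genes of 26 on the array, 8 higher and 7 lower, with a median of 0.052. FBLN1, a fibulin that is also in the fibroblast list, differed by 0.35 and HABP4, an intracellular hyaluronan-binding protein, by 0.27. HAPLN3, a link protein, differed by -0.52 ± 0.38 (SE) and was above background on 6 arrays. Its readings in affected foxes 19 and 757, 5.34 and 9.54, lay below background. C1QBP, a multifunctional and mainly mitochondrial protein, differed by -0.39, with a second probe set at -0.052.

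Proteases that cut versican or CD44 had 6 tested genes, 3 higher and 3 lower, with a median of 0.068. MMP9, a gelatinase of neutrophils and other cells, stood out with 71.0, 182, 55.3, 60.2 and 78.4 in affected foxes 19, 55, 107, 381 and 757, against 30.7, 15.2 and 33.7 in unaffected foxes 86, 97 and 402. The groups did not overlap, and the difference was 1.23 ± 0.33 (SE; limma's moderated test across all probe sets gave an unadjusted p of 0.00411 and an adjusted p of 0.9999). ADAM10, a sheddase of CD44, differed by 0.34 with a second probe set at -0.069, and MMP14, a membrane-bound protease, by -0.31. ADAMTS5, an aggrecanase that also cuts versican, differed by -0.47 ± 0.25 (SE) and was above background on 7 arrays, with 9.63 in affected fox 55. Partners of CD44 had 10 tested genes, 3 higher and 7 lower, with a median of -0.069. Among them SPP1 (osteopontin), a secreted ligand of CD44, read 1190, 310, 3614, 652 and 924 in affected foxes 19, 55, 107, 381 and 757, against 1946, 83.9 and 82.5 in unaffected foxes 86, 97 and 402. Unaffected fox 86 lay inside the affected range and the other unaffected foxes below it. SPP1 differed by 1.87 ± 1.02 (SE, limma adjusted p = 0.9999), by 1.68 in its second probe set, and by 3.30 without fox 86. EZR, ezrin, differed by 0.19 with further probe sets at -0.073 and -0.18, MSN, moesin, by -0.42, and LGALS9, galectin-9, by -0.33.

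**Figure D5:**
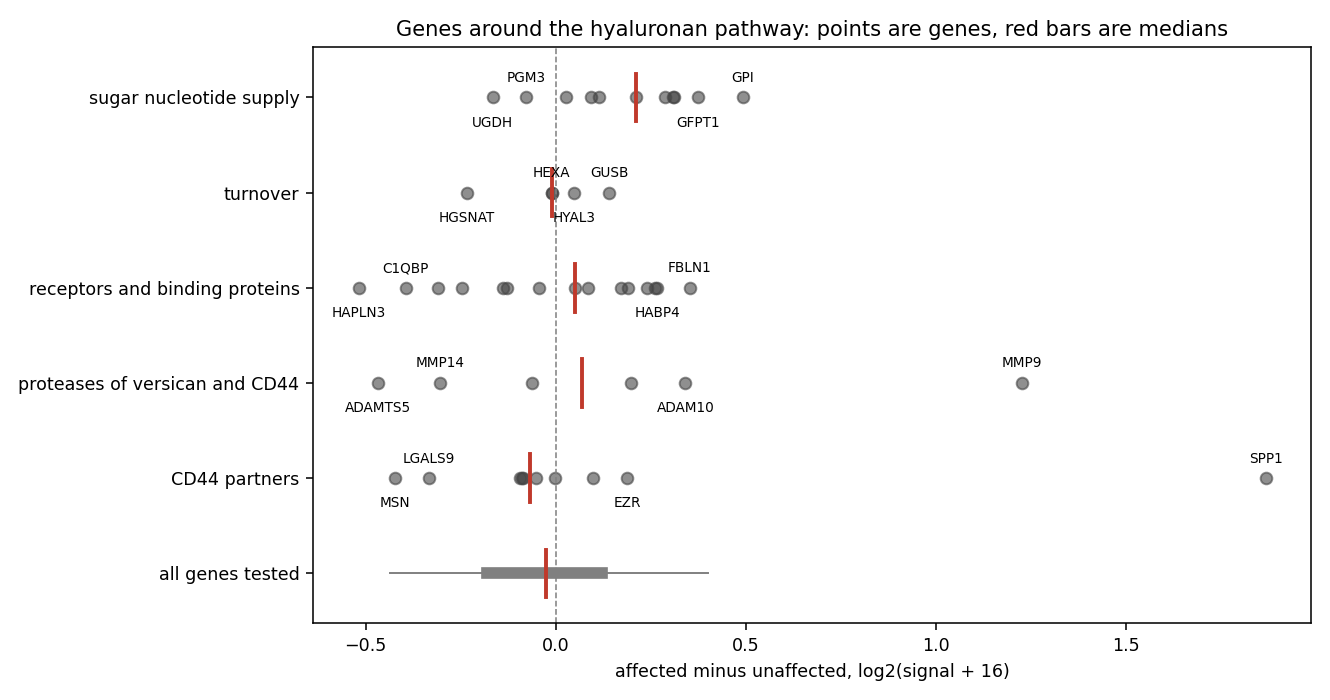
Difference between affected and unaffected foxes in log2(signal + 16) for the tested genes of 5 lists around hyaluronan, with list medians as red bars, and for all 10848 genes the median, the middle 50% (box) and the 5th to 95th percentile (line). SPP1 and MMP9 lie farthest to the right, and most sugar nucleotide genes lie above 0.

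Between 63.4% and 74.7% of the probe sets of an array lay above the array background, which was the 95th percentile of 42 bacterial control probe sets and ranged between 7.42 and 16.6. Of the other cell type lists, macrophage genes had higher means in affected foxes for 4 of 5 tested genes, with summed signals of 666 to 1473 in the affected animals and of 497 to 1532 in the unaffected animals. Neutrophil genes were higher for 4 of 4, with sums of 25607 to 30518 in the affected animals and of 25309.7 to 29008 in the unaffected animals. These sums are mostly the calprotectin genes S100A8 and S100A9. Apart from LCN2 the neutrophil genes differed by less than their SE, S100A8 by 0.060 ± 0.16, S100A9 by 0.096 ± 0.18 and CSF3R by 0.062 ± 0.54. T cell genes were higher for 1 of 4, and their sums ran from 105 to 772 in the affected animals and from 214 to 1269 in the unaffected animals. Endothelial genes were higher for 2 of 5, mast cell genes for 2 of 4 and smooth muscle and pericyte genes for 3 of 4. Within these lists LCN2 (lipocalin-2, of neutrophils and epithelium) differed by 1.44 ± 0.35, CD68 (a macrophage lysosomal protein) by 1.07 ± 0.35 and CMA1 (mast cell chymase) by 0.94 ± 0.25 (SE), named after their values were seen. In each of these the affected foxes all lay above the unaffected foxes, and limma's unadjusted p-values were 0.00220, 0.0119 and 0.00385 with adjusted p-values of 0.9999. For CMA1 this separation was narrow and near the background, which it exceeded on 5 arrays. Affected fox 55 read 14.6, below its array background of 16.6, and unaffected fox 97 read 14.2. The other mast cell genes differed by 0.34 (CPA3), -0.42 (KIT) and -0.12 (MS4A2). Besides CD68 the macrophage genes differed by 0.65 ± 0.31 (CD163), 0.41 ± 0.26 (CD14), 0.14 ± 0.48 (CSF1R) and -0.10 ± 0.57 (AIF1) (SE). The part of immune cells in the values above was not tested.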

How the data were processed

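Gingival RNA of 8 foxes was hybridised to Affymetrix Canine 2 arrays. The deposited values are linear intensities, 1 signal per probe set and array, made by the authors with MAS5 per the submitters' processing notes (its scaling and detection calls are not stated in these sources). On every array the deposited intensity had a 2% trimmed mean of 150.0. Of 42924 probe sets that were not array controls, the annotation gave 1 symbol to 29254, several to 439 and left 13231 unnamed here. Values were taken as log2(signal + 16), which shrinks differences of dim probe sets, and the dimmest 40% by mean over the 8 arrays were left out, so the lowest mean kept was 18.2. A probe set was above background where it exceeded the 95th percentile of the 42 bacterial control probe sets of its array. Groups were compared with limma 3.58.1 in R 4.3.3 (lmFit, eBayes, Benjamini-Hochberg threshold 0.05), on group alone. Sex was added as a term, and then as an interaction. Precision is limited by the number of arrays, with a median standard error of 0.23 on the log2 scale. Data were simulated over 25754 probe sets for affected against unaffected, with 200 changed in each of 5 draws. There limma recovered 30.0% of those changed by 1 on the log2 scale, 81.2% by 2, 84.4% by -2 and 96.8% by 3. The simulated noise was normal and independent between probe sets, and the shifts ignored the floor of the log2(signal + 16) scale. Variation shared by probe sets was not simulated, so these rates may not hold for the real arrays. Correlations over the 8 foxes used two-sided exact permutation tests over all pairings in scipy 1.17.1. All member probe sets are named, and of each list the 2 genes of largest difference in each direction. For each member with a probe set above background on all arrays, the 3 genes most like its brightest probe set are named. HYAL1 was ranked by probe set B instead, a choice made after seeing the data. Members and lists were chosen with earlier results of these data known, and the HYAL1 relation with the keratinocyte score was added after seeing the data. Alternatives changed the offset, normalization, filter, covariates, array weights, prior variance and foxes used.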

Additional observations from a re-analysis of the deposited data

Results flagged for a closer look

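In some results 1 affected fox stood far from the other 4. The gap between the highest or lowest of the 5 affected foxes and its nearest neighbour was set against the range by Dixon's test at 95%, on the signal. Of the 37 groups examined 7 passed, where chance gives about 1 in 20 for normally distributed values, and 5.86% of all 25754 tested probe sets passed. HYAL1 read 510 in fox 19 in probe set A, where the next affected fox read 104. In probe set B fox 19 read 252 and the next 68.2, and in probe set C 157 and 42.6. VCAN read 103 in fox 107 in probe set A, and 35.3 in the next. Among the genes around the pathway, GPI read 6903 in fox 55 and 4865 in the next, MMP9 read 182 in fox 55 and 78.4 in the next, and SPP1 3614 in fox 107 and 1190 in the next. With any 1 fox left out, the group differences of GPI, MMP9 and SPP1 were at least 0.36, 0.97 and 1.14 on the log2(signal + 16) scale. The 3 HYAL1 values come from 1 fox and 1 gene and are not independent. On the log2(signal + 16) scale, added after seeing the data, 6 of the 37 groups passed and 5.66% of all tested probe sets. HYAL1 probe set A, VCAN probe set A and SPP1 did not pass on that scale, HYAL1 probe sets B and C, GPI and MMP9 did, and HYAL2 probe set B and FBLN1 passed on that scale alone.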

How the results depend on the processing

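The precision is limited by 8 arrays, 3 of them unaffected. limma called 0 probe sets, members or not, in every alternative it was fitted to; the differences within the actin sets carry no test. The 3 CD44 probe sets, the HYAL2 probe sets A, B and C and HAS3 probe set B kept their sign in all of theirs. The number of the 13 members with an unadjusted p under 0.05 was 1 with array weights or the actin covariate, 3 with the keratinocyte covariate, and 0 to 3 with 1 fox left out (3 without unaffected fox 86, 2 without affected fox 19 or 107). The shares of all tested probe sets in these fits are not given here. These counts therefore cannot be read as a result about the members. Each by its brightest probe set, GPI, GFPT1, GUSB, HGSNAT, HABP4, HAPLN3, C1QBP, MMP9, ADAM10, ADAMTS5, MMP14, SPP1 and EZR also kept their sign. The differences of the other members and named list genes changed sign in at least 1 alternative, and the cause was not tested. With 1 fox left out they ranged over -0.49 to 0.13 (HAS1), -0.10 to 0.22 (HAS2), -0.016 to 0.37 (HAS3 probe set A), -0.96 to 0.61 and -0.55 to 0.15 (HYAL1 probe sets A and B), -0.034 to 0.16 (HYAL2 probe set D), -0.82 to 0.31 and -0.24 to 0.36 (VCAN), -1.07 to 0.70 (UGDH), -0.17 to 0.054 (PGM3), -0.053 to 0.13 (HYAL3), -0.093 to 0.11 (HEXA) and -0.70 to 0.12 (LGALS9). List medians ranged over -0.12 to 0.13 for the proteases and -0.095 to 0.11 for the CD44 partners. An offset of 64 gave 0.026 (HYAL1 probe set A) and 0.0055 (VCAN probe set B). For this VCAN probe set quantile normalization gave 0.011, sex as a term 0.0099, weights 0.34, the actin covariate 0.15 and the keratinocyte covariate 0.055. The other VCAN probe set gave 0.22 with weights and 0.20 with the actin covariate. UGDH gave 0.11 with weights and 0.25 with the keratinocyte covariate, and HEXA 0.022 with quantile normalization, 0.072 with weights, 0.082 with the actin and 0.051 with the keratinocyte covariate. Males alone gave 0.87, 0.28 and 0.27 for the HYAL1 probe sets, -0.081 for FBLN1 and a median of -0.20 for receptors and binding proteins. Within foxes of high 5' actin HAS2 differed by -0.015, PGM3 by 0.12, HYAL3 by -0.038, HEXA by 0.10 and MSN by 0.0053. Within foxes of low 5' actin HAS3 probe set A differed by -0.23, HYAL1 probe set C by 0.012, HYAL2 probe set D by -0.10, the VCAN probe sets by 0.21 and 0.30 and TNFAIP6 by -0.36, and medians were 0.24 for turnover and -0.14 for the proteases. No paired analysis was possible because the 2 groups share no fox number. Background correction and slide were not varied, as scanner files were not used here.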
